A study of Mus musculus with 4 samples.

Results

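The granzymes and perforin are the proteins with which cytotoxic lymphocytes kill, and the accessibility of their genes was followed across intestinal and tumor-associated T cells of mice. The set held 10 genes of 21883 protein-coding genes, chosen by name: the granzymes Gzma, Gzmk, Gzmb, Gzmc, Gzmd, Gzme, Gzmf, Gzmg and Gzmm, and the perforin gene Prf1. Perforin forms pores in the membrane of a target cell, and granzymes are serine proteases that are released with it from secretory granules and enter the target to start its death. Most granzyme genes lie in small clusters, whose expression rises as T cells acquire effector function, and in the intestine they are also known from intraepithelial lymphocytes that carry CD8aa or a gamma-delta receptor.

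Nuclei were from T cells sorted 4 weeks after organoids of engineered colorectal cancer cells, Apc-/- and Trp53-/- among other changes, had been injected into the wall of the cecum. The 2 libraries held T cells from the tumor and T cells from the tumor-free cecum beside it. The labels name no further treatment. The paper describes the cecal tissue as adjacent to the tumors, so both libraries came from tumor-bearing animals. For sorted cells the paper states that mice were perfused. Whether cells reached by an antibody given into the blood were left out of this sort is not stated. The genotype, age and number of the mice in each library are not given in the sources used here, the tumors all derive from engrafted organoids, and there was 1 library per tissue, so tissue, library and animals cannot be told apart and no test between conditions was possible. Chromatin was read by single-nucleus ATAC, in which a transposase cuts accessible DNA and each fragment carries the barcode of its nucleus. The matched RNA libraries were not analysed here, so all values below are accessibility, not expression.

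Labels had been given by the authors to 15621 cells, 7155 of the cecum and 8466 of the tumor, in 17 cell types. They were assigned from RNA of the same nuclei. The paper describes its effector CD8 and cytotoxic gamma-delta clusters by high Gzma and Gzmb, and its terminally differentiated CD8 cluster by low Gzmb. It also names Gzmb RNA in a gene module specific to its IL-10+ Treg cells. Such labels are not independent of the members. The labelled cells held 43980981 fragments in the cecum, with a median of 4374 per cell, and 62118519 in the tumor, with a median of 5846. The level of a gene is given in FPM, the fragments with an end inside the gene span or within 5 kb of it per 1000000 labelled fragments of the same cell type and library. Pooled T cell marker genes were at 4.20 to 7.23 FPM per kb in every label, whereas epithelial markers were at 0.355 to 0.730, natural killer markers at 0.122 to 0.788, mast cell markers at 0.0543 to 0.522, neutrophil markers at 0.346 to 0.850, myeloid markers at 0.453 to 0.911 and B cell markers at 1.001 to 1.97. The 4 natural killer markers were highest in CD8aa, the B cell markers in Rorgt gdT and the mast cell markers in Innate-like T#1, each in both libraries, and their part in the levels of those labels was not tested. The CD8 markers were highest in CCR7+ CD8, Cytotoxic CD8 and PD1+ CD8, the Trdc gene in Cytotoxic gdT and Rorgt gdT, and Foxp3 in both Treg labels, each as its label says. Trdc was also at 1.66 and 0.934 FPM per kb in CCR7+ CD8 and at 1.01 and 0.930 in CCR7+ CD4. The medians of the labels were 0.267 and 0.502, and CD8aa and both innate-like labels were above them too. The CD8 markers in CCR7+ CD4 were at 1.15 and 0.934, beside medians of 0.859 and 0.934. Whether other cells entered the CCR7+ labels was not tested. The Cd4 gene was lower in Cytotoxic CD8, PD1+ CD8 and CD8aa than in every CD4 label of the same library. It did not clearly part CCR7+ CD8 from the CD4 labels. In CCR7+ CD8 the Cd4 gene was at 2.18 FPM per kb in the cecum and 1.91 in the tumor, beside 2.10 and 1.97 in IL-10- Treg. Cytotoxic CD8 was lower, at 1.49 and 1.41. CD8aa stood below Cytotoxic gdT for the CD8 markers, at 1.97 and 2.19 FPM per kb. Labelled barcodes that occurred in both libraries numbered 84.

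All intervals are exact 95% intervals and cover counting error only. In pooled counts, more cells with an open window and more openings per cell cannot be told apart. The granzymes occupy 3 sites. Gzma (chr13:113093824-113100981) and Gzmk (chr13:113171630-113180965) are neighbours on chromosome 13, both on the minus strand. Gzme, Gzmd, Gzmg, Gzmf, Gzmc and Gzmb follow each other on the minus strand of chromosome 14, from Gzme at 56117619 to the end of Gzmb at 56262334. Gzmm (chr10:79689020-79695261) and Prf1 (chr10:61297751-61304684) lie far apart on the plus strand of chromosome 10. Positions are those of mm10, the build of the files, with gene spans of RefSeq for GRCm38.p6.

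The promoters of Gzmb, Prf1 and Gzma are shown because they held the most fragments of the 11 annotated member promoters. Each is 300 bases, 250 before the start and 50 from it onward, from RefSeq (GRCm38.p6): Gzmb at chr14:56262285-56262584 on the minus strand, Prf1 at chr10:61297586-61297885 on the plus strand and Gzma at chr13:113100932-113101231 on the minus strand. Capitals mark letters that match, on either strand, a T-box motif (AGGTGT), a RUNX motif (TGTGGT), an AP-1 motif (TGANTCA) or a STAT motif (TTCNNNGAA).
Gzmb: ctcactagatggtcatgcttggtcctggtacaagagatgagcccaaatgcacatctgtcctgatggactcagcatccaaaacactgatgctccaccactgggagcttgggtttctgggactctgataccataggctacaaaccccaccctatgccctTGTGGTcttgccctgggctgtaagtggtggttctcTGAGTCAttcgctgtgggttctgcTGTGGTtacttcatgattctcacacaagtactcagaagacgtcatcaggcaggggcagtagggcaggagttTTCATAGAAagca
Prf1: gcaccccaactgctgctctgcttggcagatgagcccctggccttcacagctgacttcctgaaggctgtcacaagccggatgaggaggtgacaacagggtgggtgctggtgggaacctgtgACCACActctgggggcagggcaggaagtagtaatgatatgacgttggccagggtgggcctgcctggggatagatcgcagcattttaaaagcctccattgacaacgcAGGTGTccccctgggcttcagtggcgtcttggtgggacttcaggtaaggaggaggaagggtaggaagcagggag
Gzma: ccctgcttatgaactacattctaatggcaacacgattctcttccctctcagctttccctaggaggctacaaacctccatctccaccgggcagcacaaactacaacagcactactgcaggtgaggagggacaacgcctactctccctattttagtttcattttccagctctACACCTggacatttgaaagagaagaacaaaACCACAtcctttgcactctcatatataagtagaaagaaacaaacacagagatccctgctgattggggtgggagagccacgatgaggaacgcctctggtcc

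The T-box motif was in 5 of 11 member promoters (Gzma, Gzmc, Gzme, Gzmk and Prf1) and in 12.7% of the promoters of all protein-coding genes. The RUNX motif was in 9 of 11, missing from Gzmk and from the second Gzmm start, against 15.0% of all promoters; 5 of the 9 are the near-identical promoters of Gzmc, Gzmd, Gzme, Gzmf and Gzmg and are not separate cases. The AP-1 motif was found in Gzmb alone (6.99% of all promoters), and the STAT motif in Gzmb and Gzmm (7.69%). In the Gzmb promoter the AP-1 letters began 58 bases before the start, between RUNX matches that began at 93 and 34 bases before it. These are matches of letters in a window and do not show that a factor binds there.

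The promoters of the other chromosome 14 genes are shown in part because they are near copies of each other. Capitals mark a run of 20 bases that all 5 share, which begins 45 bases before the start of Gzmc and 70 before that of Gzmf.
Gzmc: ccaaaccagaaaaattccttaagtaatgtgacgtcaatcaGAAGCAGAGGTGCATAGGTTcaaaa
Gzmd: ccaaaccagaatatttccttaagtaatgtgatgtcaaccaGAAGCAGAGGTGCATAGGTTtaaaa
Gzme: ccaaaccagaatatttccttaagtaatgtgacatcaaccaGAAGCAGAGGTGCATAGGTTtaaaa
Gzmf: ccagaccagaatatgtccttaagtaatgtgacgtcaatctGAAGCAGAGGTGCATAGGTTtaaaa
Gzmg: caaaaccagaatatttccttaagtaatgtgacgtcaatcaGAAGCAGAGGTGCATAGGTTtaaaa

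Over the aligned part of their 300 bases, these 5 promoters were identical at 87.4% to 94.0% of positions, whereas Gzmb and Gzmc were identical at 71.7%. Member promoters of different chromosomes were at 64.4% (Gzma and Gzmb) to 77.6% (Gzmf and Prf1), so 71.7% does not set Gzmb and Gzmc apart from these. Letters of a cyclic AMP response element (TGACGTCA), a motif searched after the sequences had been seen, were in Gzmc, Gzmf and Gzmg and in 2.23% of all promoters. Reads from near copies can be lost when an aligner keeps only unique matches. Of the 500-bp tiles in the Gzmd, Gzme and Gzmg windows, 7.41%, 14.8% and 3.70% held no fragment, and of those in the Gzmf window 21.2%, against 15.8% of all tiles that overlap a gene span.

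The members fell into a group with many fragments and a group with few. Loss of reads from the near copies in the second group was not tested. Over all labelled cells, Gzmk had 2.43 FPM per kb in the cecum and 2.53 in the tumor, Gzmb 2.61 and 2.53, Prf1 1.97 and 2.49, Gzma 1.88 and 2.13, and Gzmm 1.23 and 1.31. The median protein-coding gene was at 0.666 and 0.694, so per kb these 5 windows stood above the middle of all genes. By fragments alone Gzmm, with 2194, was at percentile 44.9. Gzmc and Gzmf, little-studied relatives of Gzmb, were lower, at 0.371 and 0.477 for Gzmc and 0.458 and 0.561 for Gzmf. Gzmd, Gzme and Gzmg, the most distant from Gzmb in the cluster, had only 74, 61 and 67 fragments in all 15621 cells. Their levels never exceeded 2.22 FPM in any label of at least 50 cells, and no neighbouring labels in their order had intervals apart.

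Fragments lay at the start of some genes and away from it in others. The 300-base promoter of Gzmb held 2007 fragments, 54.7% of its window, and that of Prf1 1462, or 35.7%. The promoter of Gzma held 567 (15.4%) and that of Gzmk only 297 (5.82%), close to the 230 of the median promoter of all genes. The tallest Gzmk tile lay 2.79 kb upstream of the start with 1653 fragments, and the tallest Gzma tile 3.77 kb upstream with 743. For Gzmf, the tile at the far end of the gene, 6.16 kb from the start, held 43.5% of the window, while the promoter had 15 fragments. Fragments under 150 bp, which come mostly from DNA free of nucleosomes, made up 54.7% and 55.5% of the Prf1 window but 38.7% and 43.6% of the Gzmk window, against 45.3% and 48.0% of all fragments.

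**Figure D1:**
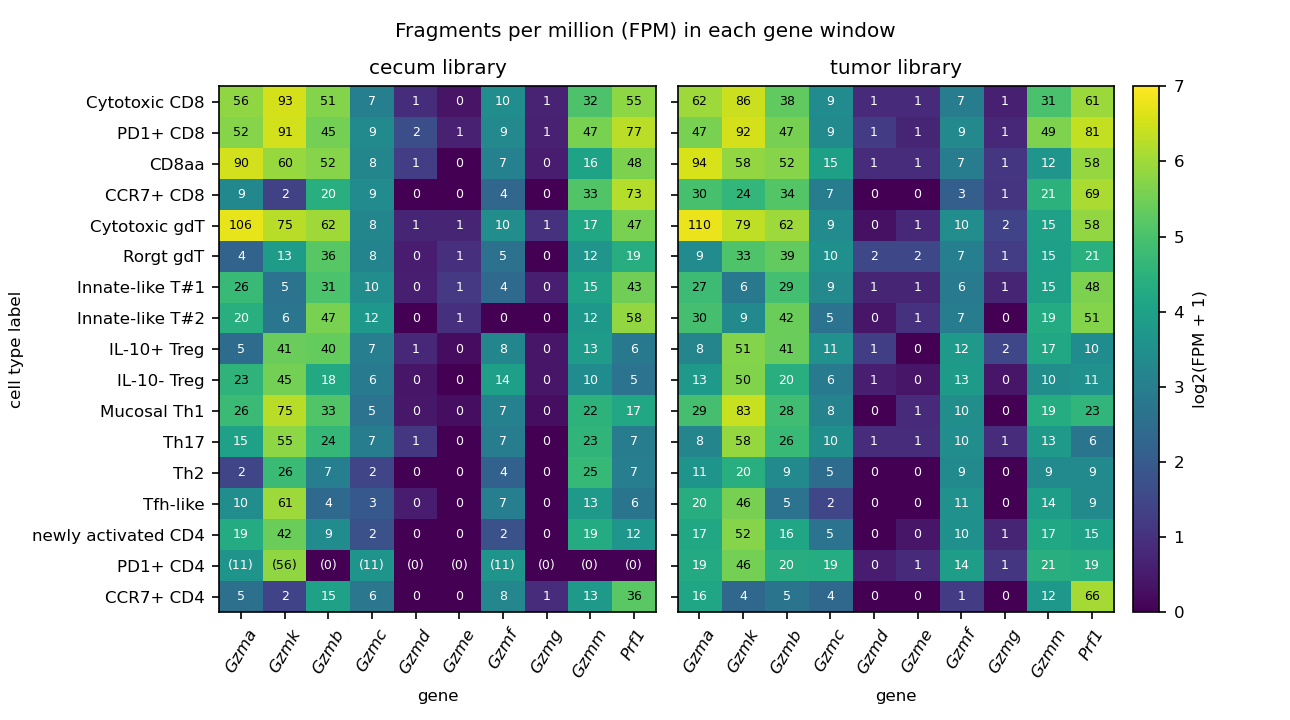
FPM in the window of each member (columns) for each label (rows), with the cecum and the tumor shown side by side, brighter colour for higher levels and values in brackets for a label of under 50 cells. Gzma and Gzmb are highest in Cytotoxic gdT, Gzmm and Prf1 in PD1+ CD8, and Gzmd, Gzme and Gzmg are near 0 throughout.

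Gzma, a tryptase-like granzyme that induces death without caspases, was the member most concentrated in a few labels. It was at 106 FPM in cecum and 109.5 in tumor Cytotoxic gdT and at 90.5 and 94.2 in CD8aa. Cytotoxic CD8 had 56.4 and 62.1 and PD1+ CD8 52.2 and 47.2. These 4 labels were the top 4 of each library, and in the cecum the intervals separated CD8aa from Cytotoxic CD8 and PD1+ CD8 from the next label down. Innate-like T#1, the label with the most cells, was at 25.8 and 27.1, near Mucosal Th1 at 26.2 and 29.3. The lowest were Th2 in the cecum, with 1.76, and IL-10+ Treg in the tumor, with 8.07. Of the neighbouring labels in this order, only 2 of 15 pairs in the cecum and 2 of 16 in the tumor had intervals that did not overlap.

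Gzmk, a second tryptase-like granzyme that is known from memory-like CD8 cells, was open in many more labels, CD4 cells included. Cytotoxic CD8 had 92.7 FPM in the cecum and 86.0 in the tumor. PD1+ CD8 stood at 91.1 and 92.5. Mucosal Th1, a CD4 label, reached 75.1 and 83.4, next to Cytotoxic gdT at 74.8 and 78.7. Th17 (55.1 and 58.1), IL-10+ Treg (41.2 and 50.6) and IL-10- Treg (45.3 and 49.95) also lay far above the labels with a closed window. Those were Innate-like T#1 with 5.33 and 6.08, Innate-like T#2 with 5.66 and 9.29, and CCR7+ CD4 with 1.68 and 4.11. CCR7+ CD8 was lowest in the cecum, at 1.57, but reached 23.6 in the tumor. The innate-like labels were thus open over Gzma and nearly closed over Gzmk, although the genes are neighbours. Neighbouring labels in the Gzmk order did not separate in the cecum (0 of 15 pairs) and did so in 1 of 16 pairs in the tumor.

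Gzmb, which cleaves after aspartate and starts caspase-dependent death, had a more even spread. Cytotoxic gdT was highest in both libraries, at 62.5 and 62.0 FPM, followed by CD8aa at 52.4 and 52.0. Cytotoxic CD8 (51.1 and 37.8), PD1+ CD8 (45.3 and 46.6), Innate-like T#2 (47.1 and 42.1), IL-10+ Treg (39.8 and 41.4) and Rorgt gdT (35.6 and 38.6) were close behind. The lowest was Tfh-like, at 4.22 and 5.35. No neighbouring pair in this order had intervals apart in either library. In the cecum PD1+ CD4 held 14 cells and no Gzmb fragment, too few to place it.

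Prf1 was open in the CCR7+ labels, where Gzmk was low. PD1+ CD8 was highest, at 77.2 FPM in the cecum and 81.4 in the tumor. CCR7+ CD8, a label of memory or naive-like cells, came next at 73.2 and 68.7, and CCR7+ CD4 had 36.0 and 65.8. Cytotoxic CD8 (55.2 and 61.0), CD8aa (48.3 and 58.4), Cytotoxic gdT (47.2 and 57.7), Innate-like T#2 (57.5 and 50.7) and Innate-like T#1 (43.4 and 47.8) formed a broad second tier. The Treg, Tfh-like, Th17 and Th2 labels were at the bottom, between 5.33 and 10.7. In the tumor the single separated pair was Innate-like T#1 above Mucosal Th1 (23.2). The 300-base Prf1 promoter had 30.7 and 27.0 FPM in CCR7+ CD8 and 30.3 and 27.8 in PD1+ CD8, against 20.7 and 23.4 in Cytotoxic CD8, and in the tumor it was highest in CCR7+ CD4 (28.8).

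Gzmm, a granzyme that prefers methionine or leucine at its cleavage site, was highest in PD1+ CD8, at 47.2 and 49.2 FPM. Cytotoxic CD8 had 31.9 and 30.9 and CCR7+ CD8 33.1 and 21.4, whereas CD8aa (15.8 and 11.6) and Cytotoxic gdT (17.3 and 15.0) were low. The other labels of at least 50 cells lay between 9.11 and 24.6. The window of Gzmm overlaps the span of Cdc34 and that of Gzma the span of Cdc20b, and their fragments cannot be told apart from those of the neighbour. The windows of Gzmd and Gzme share 1070 bases, so a fragment there counts for both.

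Gzmc and Gzmf had small windows of signal. In labels of at least 50 cells Gzmc ranged from 1.76 FPM (Th2) to 12.3 (Innate-like T#2) in the cecum and from 1.78 (Tfh-like) to 19.05 (PD1+ CD4) in the tumor, where CD8aa had 14.7. Gzmf was highest in IL-10- Treg of the cecum, at 14.3, and in PD1+ CD4 (14.3) and IL-10- Treg (13.1) of the tumor. No neighbouring labels separated for either gene. The highest label was the same in both libraries for 4 of the 10 members, namely Gzma and Gzmb (Cytotoxic gdT) and Gzmm and Prf1 (PD1+ CD8).

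Over the 33 pairs of label and library with at least 50 cells, the levels of members were related to different degrees. The Pearson correlation of log2 levels (with 1 FPM added) was 0.75 for Gzmb and Gzmc, 0.61 for Gzma and Prf1, 0.55 for Gzmk and Gzmf, -0.26 for Gzmk and Prf1 and -0.32 for Gzmf and Prf1. These are descriptions, since 16 of the 17 labels enter with both libraries (at least 50 cells in each) and the labels of a library were sequenced together. Among 12258 to 12304 other genes more than 1 Mb away, those most like Gzmb were Stk10 (0.88), Uts2 (0.85) and Itgae (0.85), the alpha E integrin of intraepithelial lymphocytes. The gene most like Gzma was Mnd1 (0.89), that most like Gzmk Atp10b (0.89) and that most like Prf1 Mrvi1 (0.91). For Gzmm it was Cd8b1, a chain of the CD8 coreceptor, with a lower value of 0.68.

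The share of cells with at least 1 fragment was compared after each cell had been thinned to 2000 fragments and shallower cells left out. This left out 141 cecum and 79 tumor cells of Cytotoxic CD8 and 26 and 51 of CCR7+ CD4. In Cytotoxic CD8, 48.8% of 363 cecum cells (95% interval 43.5 to 54.0) and 43.0% of 388 tumor cells (38.1 to 48.1) had a fragment in some member window, and without thinning 65.9% and 74.5%. In CCR7+ CD4, chosen as a label of low granzyme levels, the shares were 13.1% of 99 cells (7.18 to 21.4) and 23.0% of 113 (15.6 to 31.9), or 40.8% and 30.5% without thinning. In a separate random thinning for single genes, 6 of these 99 cells and 15 of these 113 had a Prf1 fragment, so the share over all members is no background. Median depths were 4674 and 6739 fragments in Cytotoxic CD8 and 8588 and 3899 in CCR7+ CD4. For Gzma, 17.0% of 371 and 19.5% of 457 Cytotoxic gdT cells had a fragment, against 1.01% and 2.66% of CCR7+ CD4. For Gzmk, 21.2% and 15.2% of Cytotoxic CD8 cells did, and 0 of 99 and 0 of 113 CCR7+ CD4 cells, which allows up to 3.66% and 3.21%. For Prf1 the shares were 6.06% (2.26 to 12.7) and 13.3% (7.62 to 20.95) in CCR7+ CD4. In Cytotoxic CD8 they were 5.51% (3.40 to 8.38) and 9.79% (7.02 to 13.2). These intervals overlap and come from a single random thinning, so they do not rank the labels. The Prf1 level of CCR7+ CD4 was lower in the cecum (36.0 against 55.2 FPM) and not in the tumor (65.8 against 61.0). Without thinning its share was 25.6% against 25.99% in the cecum and 20.1% against 31.9% in the tumor.

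The first comparison set Cytotoxic CD8 against CCR7+ CD8, effector cells against cells with a memory or naive-like label. Gzma was at 56.4 against 8.66 FPM in the cecum (log2 ratio 2.70, 95% interval 1.83 to 3.73) and at 62.1 against 30.4 in the tumor (1.03, 0.45 to 1.66). Gzmk was at 92.7 against 1.57 in the cecum, where CCR7+ CD8 had only 2 fragments (5.88, 4.01 to 8.93), and at 86.0 against 23.6 in the tumor (1.86, 1.23 to 2.58). These 2 of the 7 members with at least 20 fragments were at least 2-fold higher in both libraries, as were 2.46% of 15011 genes. In the cecum both met the minimum through Cytotoxic CD8 (Gzma 191 against 11 fragments, Gzmk 314 against 2). The paper also describes its effector CD8 cluster by high Gzma RNA, so their number is a description. Gzmb was higher in the cecum (51.1 against 20.5, log2 ratio 1.32) and not in the tumor (37.8 against 33.8, 0.16, -0.41 to 0.78). Prf1 was lower in Cytotoxic CD8 of the cecum (-0.41, -0.77 to -0.03) and had an interval that includes 0 in the tumor (-0.17, -0.58 to 0.26). Gzmm had intervals that include 0 (-0.05 and 0.53). The Gzma call was lost over the gene span alone, where the smaller of its library ratios was 0.34, and within 1 kb of the gene ends, where it was -0.17.

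Of the 16 other granule genes, 15 were tested and 1 was higher in Cytotoxic CD8, Serpinb6b, a serpin (64.3 against 21.3 FPM in the cecum and 61.5 against 30.4 in the tumor). Their median log2 ratio was 0.13 and 0.06, beside 0.01 and 0.02 for all genes. Of 12 regulators, Lef1, a factor of naive and memory cells, was lower (226 against 558 and 204 against 525 FPM), beside 2.0% of genes, and none was higher. Of the protease neighbours 3 of 12 could be tested and none passed the rule. Summed natural killer markers were at 57.85 against 33.1 FPM in the cecum and 50.3 against 32.65 in the tumor. Epithelial markers (189 against 129 and 175 against 133) and mast cell markers (43.1 against 31.5 and 49.0 against 47.3) were also higher. Myeloid markers were lower (119 against 146 and 124 against 140), and B cell and neutrophil markers changed direction between libraries. Their part was not tested.

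**Figure D2:**
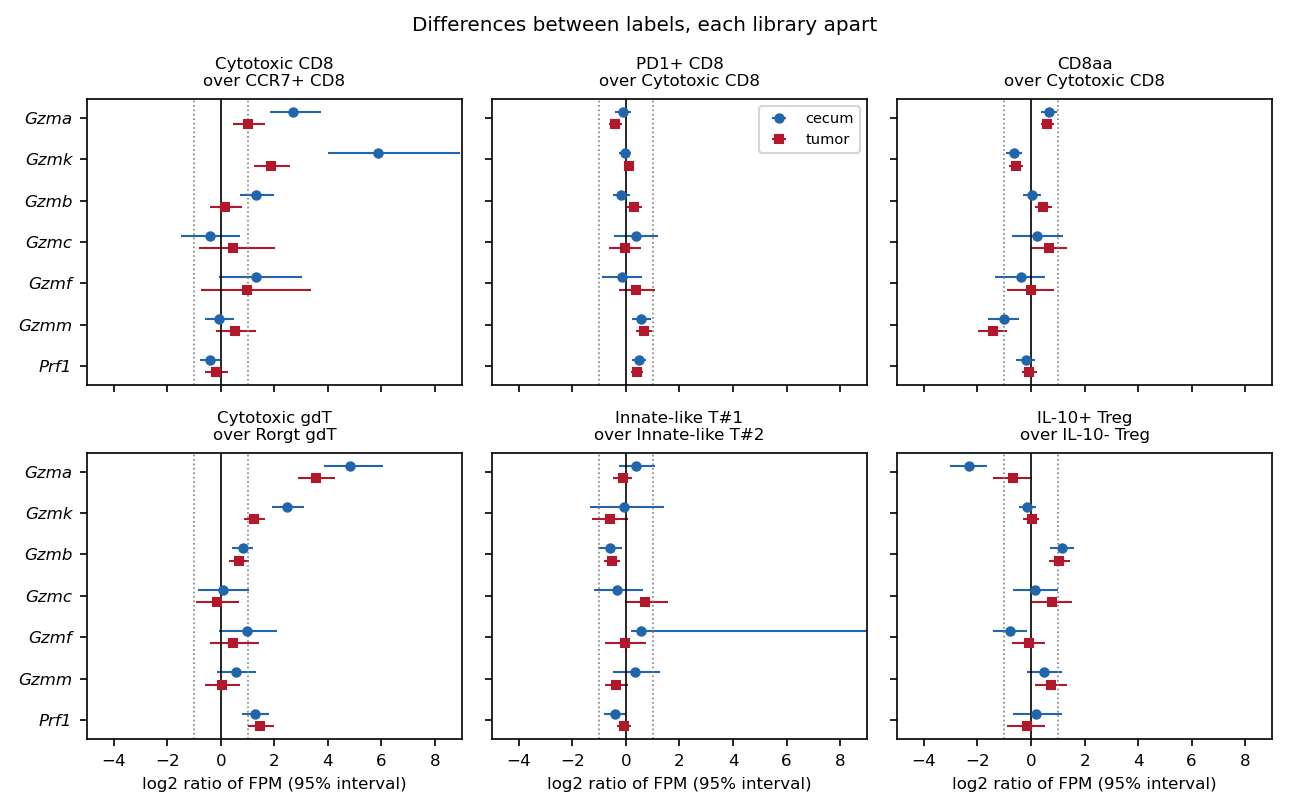
Log2 ratio of FPM between labels for the 7 members with enough fragments, with 95% intervals, the cecum as circles and the tumor as squares, and dotted lines at 2-fold. Gzma and Gzmk lie to the right in both libraries for Cytotoxic CD8 and Cytotoxic gdT, Gzmm to the left for CD8aa and Gzmb to the right for IL-10+ Treg, and the Gzmf point of the innate-like labels in the cecum is a lower bound because Innate-like T#2 had 0 fragments.

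PD1+ CD8 and Cytotoxic CD8 differed little. None of 7 members passed the 2-fold rule in both libraries, as against 0.758% of 16105 genes. Gzmm was 1.48 and 1.59 times as high in PD1+ CD8 (log2 ratios 0.57, 0.21 to 0.93, and 0.67, 0.37 to 0.98). Prf1 was 1.40 and 1.33 times as high (0.48, 0.21 to 0.76, and 0.42, 0.20 to 0.64), so for both genes the intervals lay above 0 in each library. Gzmk was level, with a log2 ratio of -0.03 for the cecum cells (-0.25 to 0.20) and 0.10 for those of the tumor (-0.08 to 0.29). In the tumor Gzma was lower in PD1+ CD8 (-0.39, -0.63 to -0.16) and Gzmb higher (0.30, 0.02 to 0.58). None of 15 granule genes or 12 regulators passed, and of 5 protease neighbours Cma1, a mast cell chymase gene of the chromosome 14 region, was higher in PD1+ CD8 (5.28 against 1.48 and 10.5 against 1.86 FPM), beside 0.571% of genes. In each library most Cma1 fragments of this comparison came from PD1+ CD8, so its call is a description. The list of 6 mast cell markers was lower there, at a summed 21.1 against 43.1 FPM in the cecum and 23.9 against 49.0 in the tumor.

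Against Cytotoxic CD8, CD8aa had more Gzma and less Gzmk and Gzmm. Gzmm was at 15.8 against 31.9 FPM in the cecum (-1.01, -1.62 to -0.45) and at 11.6 against 30.9 in the tumor (-1.42, -1.98 to -0.89), and was the 1 of 7 members at least 2-fold lower, beside 0.988% of 15389 genes. The call is marginal, since the cecum ratio became -0.99 without the barcodes shared by the libraries. Gzma was 1.61 and 1.52 times as high (0.68, 0.39 to 0.98, and 0.60, 0.36 to 0.85). Gzmk was lower by less than 2-fold (-0.63, -0.94 to -0.33, and -0.57, -0.84 to -0.31). No granule gene, regulator or protease neighbour (0 of 3) passed the rule in this comparison.

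Both gamma-delta labels carry the same receptor type and differed in 3 members. Gzma was at 106 against 3.70 FPM in the cecum (4.84, 3.84 to 6.06) and 109.5 against 9.41 in the tumor (3.54, 2.90 to 4.27). Gzmk was at 74.8 against 13.4 (2.48, 1.92 to 3.09) and 78.7 against 32.9 (1.26, 0.88 to 1.65). Prf1 was at 47.2 against 19.4 (1.28, 0.78 to 1.81) and 57.7 against 20.7 (1.48, 1.01 to 1.98). These 3 of 7 members were at least 2-fold higher in Cytotoxic gdT, beside 2.18% of 15406 genes. The paper describes its cytotoxic gamma-delta cluster by high Gzma and Gzmb RNA. In the cecum Gzma also met the minimum of fragments through Cytotoxic gdT (318 against 8). The number of members is therefore a description. Gzmb was higher by less, at 1.76 and 1.61 times, and Rorgt gdT kept an open Gzmb window. Among 15 granule genes, Nkg7 (101 against 31.9 and 98.3 against 26.8 FPM), needed for granule release, and Tnfsf10 (98.1 against 43.9 and 108 against 46.1), a death ligand, were higher. Of 12 regulators Tbx21, the T-bet gene, was higher (141 against 57.4 and 116 against 55.5 FPM).

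The innate-like labels differed in no member by 2-fold in both libraries (0 of 7, beside 0.944% of 16215 genes). Gzmb was lower in Innate-like T#1, at 31.1 against 47.1 FPM in the cecum (-0.60, -1.04 to -0.13) and 29.3 against 42.1 in the tumor (-0.52, -0.82 to -0.22). For Gzma the ratios were 0.38 (-0.27 to 1.10) and -0.13 (-0.47 to 0.23). Gzmf had 0 fragments in 165 cecum cells of Innate-like T#2, where a count of 0 has an upper limit of 3.48 FPM.

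The study compares regulatory T cells that express Il10 with those that do not. Gzmb was higher in IL-10+ Treg, at 39.8 against 18.0 FPM in the cecum (1.14, 0.71 to 1.6) and 41.4 against 19.98 in the tumor (1.052, 0.67 to 1.44). It was the 1 of 7 members at least 2-fold higher in both libraries, beside 0.375% of 16004 genes. The paper names Gzmb RNA in a gene module of its IL-10+ Treg cells, so this number is a description. The Gzmb promoter alone had 25.2 against 11.7 FPM and 22.0 against 12.6. Gzma ran the other way in the cecum, at 4.55 against 22.7 (-2.32, -3.03 to -1.64), and by less in the tumor, at 8.07 against 12.7 (-0.66, -1.42 to 0.04). Gzmk did not differ beyond its intervals (-0.14, -0.45 to 0.18, and 0.02, -0.28 to 0.32). No granule gene or regulator passed the rule, and the smaller Gzmb ratio fell under 2-fold within 1 kb of the gene ends (0.91) and as a mean over cells (0.72).

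In the tumor alone, PD1+ CD4 could be set against CCR7+ CD4. Gzmk was at 45.6 against 4.11 FPM (3.47, 1.91 to 5.76), Gzmf at 14.3 against 1.37 (3.39, 0.87 to 8.71), Gzmc at 19.05 against 4.11 (2.21, 0.63 to 4.51) and Gzmb at 19.7 against 5.48 (1.85, 0.45 to 3.75). CCR7+ CD4 had 1 to 4 fragments for each of these. They met the minimum of fragments through PD1+ CD4, the label where they were high, so their number supports nothing; of 16085 genes, 11.6% were at least 2-fold higher. Prf1 was lower, at 19.2 against 65.8 FPM (-1.78, -2.27 to -1.26), and was the 1 member lower, beside 4.56% of genes. Granule genes Nkg7, Stx11, Serpinb6b, Tnfsf10 and Slamf7 (5 of 15) and regulators Tbx21, Zeb2 and Batf (3 of 12) were higher, and Lef1 was lower. Of the lists of other cells, summed levels in PD1+ CD4 were 61.9 against 32.9 FPM for natural killer and 75.5 against 21.9 for mast cell markers. B cell markers were at 188 against 137 and epithelial markers at 139 against 130. Myeloid markers (101 against 134) and neutrophil markers (47.0 against 53.4) were lower. The part of these lists in the differences was not tested. Over the gene span alone the Gzmk call was lost, and no second library could repeat this comparison.

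Tiles of 500 bp showed where the windows were open. A tile was called open in a label when it had at least 10 fragments and 5 times the mean tile of that label in both libraries, a rule that labels with more cells pass more easily. On chromosome 13, 46 of 375 tiles were open in at least 1 label: 38 in PD1+ CD8, 33 in Cytotoxic gdT, 28 in Cytotoxic CD8, 23 in CD8aa, 21 in Innate-like T#1 and 15 in IL-10- Treg. CCR7+ CD8, CCR7+ CD4, Tfh-like and Th2 had 0, the Tfh-like label with Gzmk at 61.4 FPM in the cecum. On chromosome 14, 25 of 490 tiles were open, with 24 of 215 around Prf1 and 20 of 93 around Gzmm.

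Individual elements of chromosome 13 followed different labels. The tallest, chr13:113183501-113184000, lay 2.79 kb upstream of Gzmk, overlapped no other gene and was open in 9 of 16 labels. It had 33.0 and 27.2 FPM in Cytotoxic CD8 and 16.7 and 17.4 in IL-10- Treg, but 0.620 and 0.960 in Innate-like T#1. A tile 19.8 kb upstream of Gzma, at chr13:113120501-113121000 inside the span of Cdc20b, was open in 10 labels, Treg and Th17 among them. By contrast chr13:113087501-113088000, beyond the 3′ end of Gzma and 13.2 kb from its start, was open in only the Cytotoxic CD8, PD1+ CD8, CD8aa, Cytotoxic gdT and the innate-like labels (6 labels). It had 13.02 and 16.1 FPM in Innate-like T#1 but 1.23 and 1.47 in IL-10+ Treg and 0.9997 and 1.03 in IL-10- Treg. A further tile, chr13:113168501-113169000 at 12.2 kb from the Gzmk start, was open in 7 labels, both Treg labels among them and neither innate-like label. The transcript parts (exon, intron) these tiles overlap were not determined here.

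**Figure D3:**
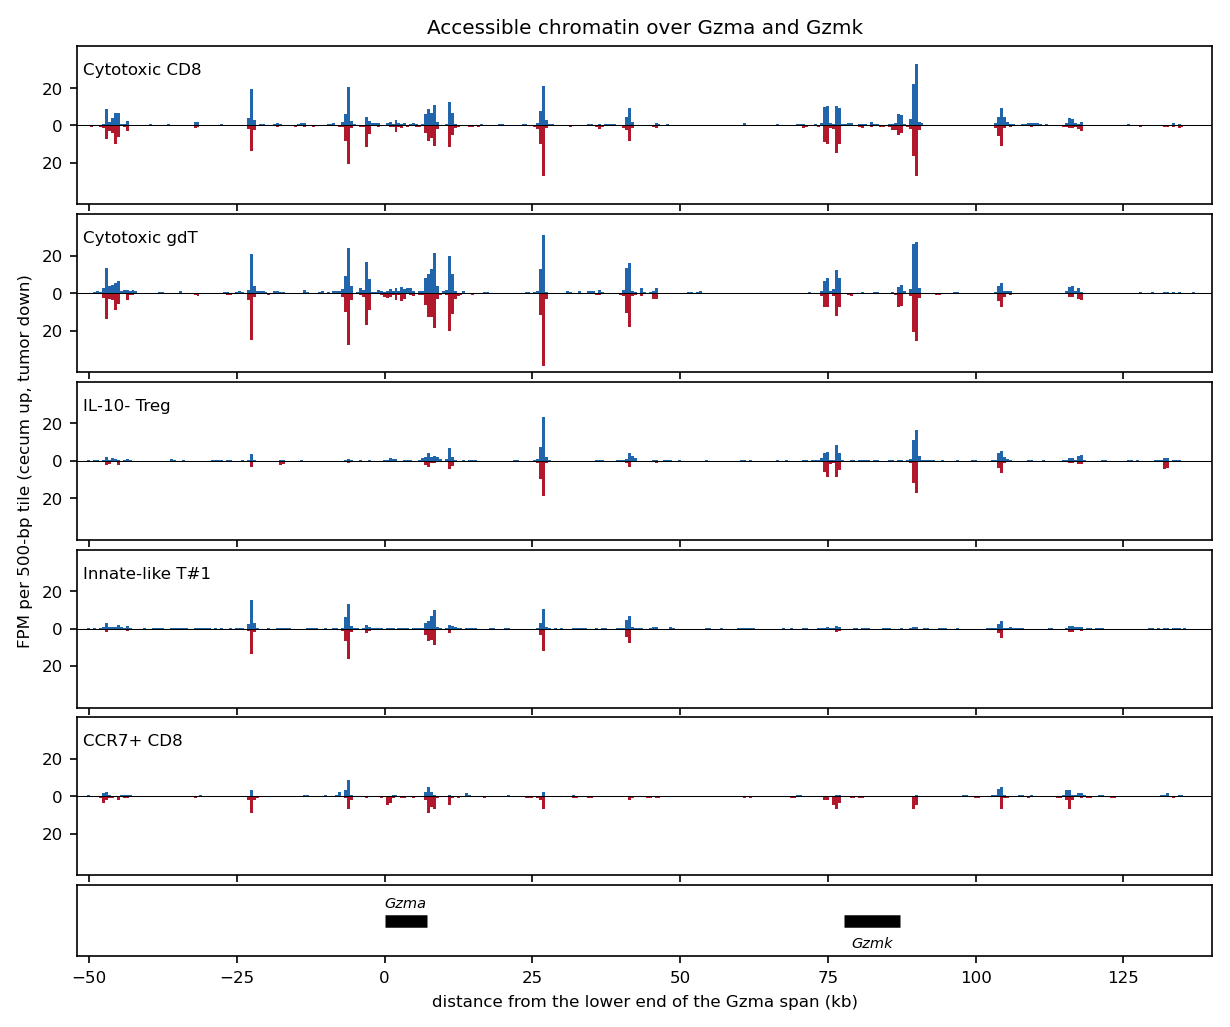
FPM in 500-bp tiles across Gzma and Gzmk for 5 labels, the cecum upward and the tumor downward, against distance in kb from the lower end of the Gzma span, with gene spans below. Peaks around Gzma appear in Innate-like T#1 without those at Gzmk, whereas IL-10- Treg has both upstream elements and little over the 3′ side of Gzma.

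Tiles of large difference between labels are given as descriptions, since they were chosen for it. In Cytotoxic CD8 and CCR7+ CD8, the tile 2.79 kb upstream of Gzmk had 112 against 1 fragments in the cecum (log2 ratio 5.39, 2.88 to 10.7) and 102 against 4 in the tumor (2.59, 1.19 to 4.496). In Cytotoxic gdT and Rorgt gdT, the tile 1.27 kb upstream of Gzma had 64 against 1 fragments and 78 against 1 (5.52, 2.99 to 10.9, and 5.31, 2.79 to 10.6). Nearly all fragments of both tiles came from the cytotoxic label, so the number of tiles past 2-fold is not given.

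At Gzmb the start and a distant pair of tiles behaved differently. The start tile, chr14:56262001-56262500, had 25.7 and 17.6 FPM in Cytotoxic CD8 and was open in 12 of 16 labels. Tiles 34.4 and 34.9 kb upstream of Gzmb, at chr14:56296501-56297000 and the next 500 bases, were open in 14 and 13 labels. The first of them had 24.8 and 25.3 FPM in Cytotoxic CD8 and 22.6 and 28.8 in CCR7+ CD4, where Gzmb itself was low. The tile 3.92 kb upstream was open in 5 labels (CD8aa, Cytotoxic CD8, Cytotoxic gdT, Innate-like T#1 and PD1+ CD8). It was higher in Cytotoxic gdT than in Rorgt gdT (2.22, 0.97 to 3.76, and 2.26, 1.13 to 3.63). The tile 13.9 kb upstream was higher in IL-10+ Treg than in IL-10- Treg (1.07, 0.05 to 2.24, and 1.21, 0.33 to 2.09), and the one 29.4 kb upstream, open in IL-10- Treg alone, was lower (-2.34 and -1.37). They were the 1 higher and the 1 lower of 14 chromosome 14 tiles compared between the Treg labels, beside 2.20% and 3.22% of 74601 such tiles of the genome. Both are named for their difference, and a tile could meet the minimum through the label where it was high. These numbers are therefore descriptions.

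**Figure D4:**
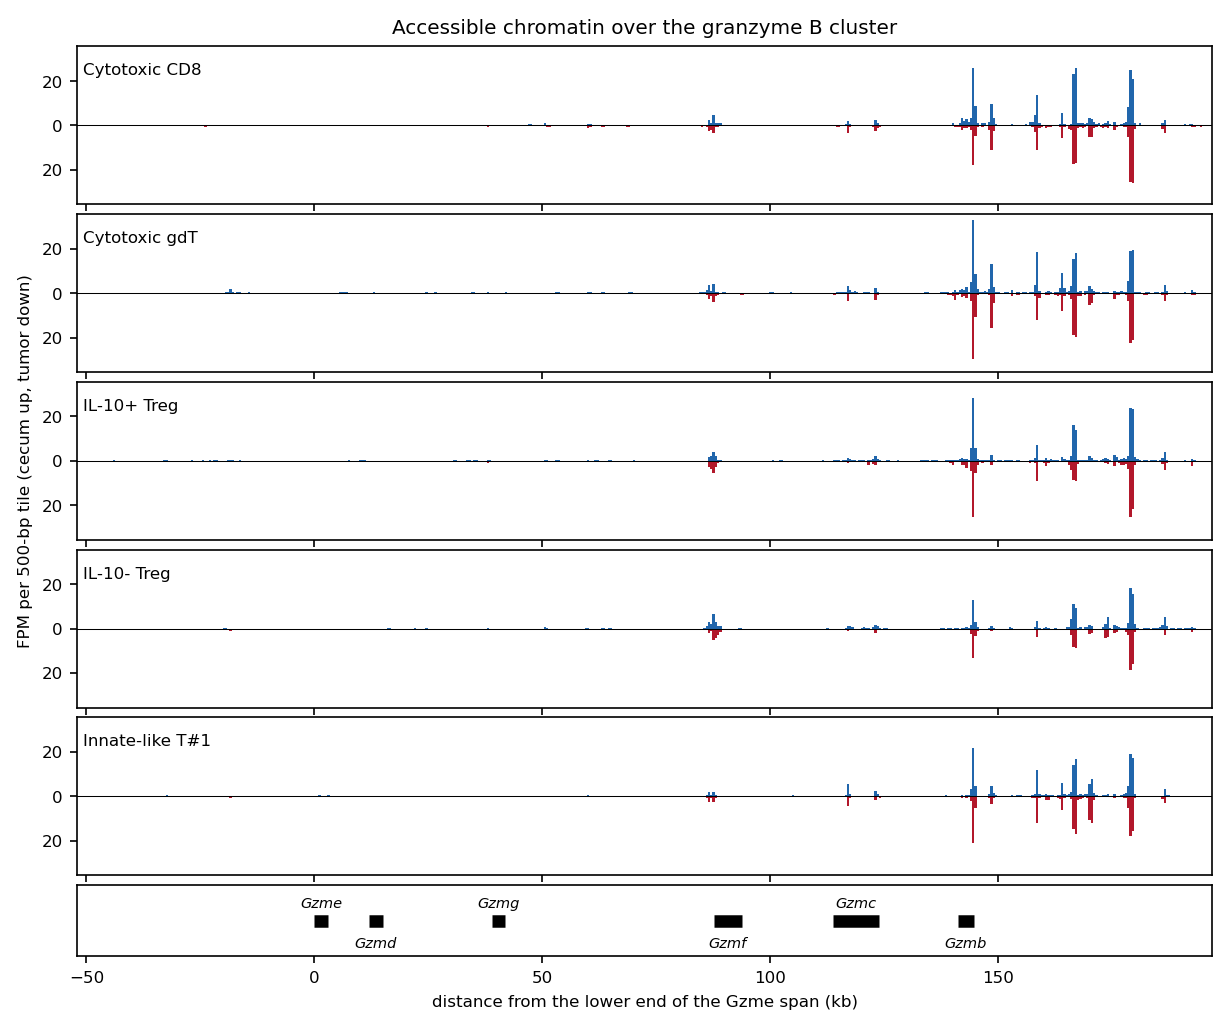
FPM in 500-bp tiles across the chromosome 14 cluster for 5 labels, the cecum upward and the tumor downward, against distance in kb from the lower end of the Gzme span, with gene spans below. Signal lies at Gzmb and in tiles up to 34.9 kb upstream of it, with small peaks at Gzmf and Gzmc and almost none at Gzme, Gzmd and Gzmg.

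Around Prf1 the start tile had 20.9 and 24.5 FPM in Cytotoxic CD8 and was open in 10 labels. A tile 22.1 kb upstream was higher in CD8aa than in Cytotoxic CD8 (1.55, 0.86 to 2.26, and 1.51, 0.98 to 2.06) and in Cytotoxic gdT than in Rorgt gdT (1.98 and 2.55). Over Gzmm, the tile 3.23 kb from the first start, inside the gene, was lower in CD8aa too: it had 51 fragments in Cytotoxic CD8 of the cecum against 5 in CD8aa, and 41 against 5 in the tumor (-2.70, -4.38 to -1.38, and -2.92, -4.62 to -1.58). In PD1+ CD8 the same tile reached 21.7 and 22.0 FPM.

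Between tumor and cecum the number of members called in the cytotoxic labels depended on the window counted. In Cytotoxic CD8, 0 of 7 members differed by 1.5-fold, beside 7.10% of 16032 genes, and Gzmb was at 37.8 FPM in the tumor against 51.1 in the cecum (-0.43, -0.76 to -0.10). The count was 2 within 1 kb of the gene ends (Gzmb and Gzmf) and as a mean over cells (Gzmc and Gzmf). In PD1+ CD8, 1 of 8 members was lower, beside 2.59% of 17112 genes: Gzmd, with 12 fragments against 8 and an interval that includes 0 (-0.76, -2.17 to 0.74). In CD8aa, Gzmc was higher (14.7 against 8.35 FPM, 0.82, 0.02 to 1.68), 1 of 7 members beside 4.71% of 15322 genes, but its ratio was -0.046 within 1 kb of the gene ends. In Cytotoxic gdT none of 7 differed, beside 6.34% of 15954 genes, but 2 did over the gene span (Gzmk and Gzmf) and 3 within 1 kb of the ends (Gzmk, Gzmc and Gzmm). Gzma in this label was at 109.5 against 106 (0.05, -0.16 to 0.26) and Gzmb at 62.0 against 62.5 (-0.01, -0.29 to 0.27), so for the whole window a change of 1.5-fold lies outside the counting interval of each.

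In IL-10+ Treg, 4 of 7 members (Gzma, Gzmc, Gzmf and Prf1) were 1.5-fold higher in the tumor, beside 5.25% of 16021 genes, but each interval includes 0, and the count was 1 over the gene span (Prf1) and with 1 FPM added (Gzma). Gzma was at 8.07 against 4.55 FPM (0.82, -0.06 to 1.70), and Prf1 at 9.53 against 6.13 (0.64, -0.15 to 1.41). As a mean over cells the Gzma ratio was -0.52. In IL-10- Treg, Prf1 was higher, at 10.7 against 5.33 (1.002, 0.19 to 1.90), 1 of 7 beside 6.13% of 16490 genes. Gzma was lower there, at 12.7 against 22.7 (-0.83, -1.33 to -0.33), beside 2.34%. The Gzma call was lost over the span alone (-0.50) and as a mean over cells (-0.33), and the Prf1 call within 1 kb of the gene ends (0.51). In IL-10- Treg, Gzmb was level (19.98 against 18.0, 0.15, -0.33 to 0.64). Of the granule genes and regulators tested in these 6 labels, Nkg7 alone passed, higher in tumor IL-10- Treg. Of the protease neighbours, the chymase genes Cma1 and Cma2 were higher in tumor PD1+ CD8 (2 of 5, beside 3.57% of genes) and Cma2 in tumor IL-10- Treg (1 of 5). A gene could meet the minimum through the library where it was high, so these counts are descriptions.

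Larger tissue differences were seen in other labels. In CCR7+ CD8, Gzma was at 30.4 FPM in the tumor against 8.66 in the cecum (27 against 11 fragments, 1.81, 0.75 to 2.97). Gzmk was at 23.6 against 1.57 (21 against 2 fragments, 3.91, 1.88 to 7.05), while Prf1 (-0.09, -0.58 to 0.39) and Gzmb (0.72, -0.08 to 1.54) had intervals that include 0. In the same label 1 of 15 granule genes and 2 of 12 regulators had intervals above 0, beside 4.82% of 13622 genes, and 1 regulator had an interval below 0, beside 4.39%. Slamf7, an activating receptor, was at 107 against 50.4 FPM (1.09, 0.61 to 1.57), and Tbx21 (80.0 against 53.5) and Zeb2 (95.7 against 67.7) were the regulators above 0. Bach2 was lower (837 against 969), while Lef1 (525 against 558) and Tcf7 (230 against 258) had intervals that include 0. The label held 137 tumor and 149 cecum cells, and whether other cell types entered it was not tested.

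In CCR7+ CD4, Prf1 was at 65.8 against 36.0 FPM (0.87, 0.24 to 1.496), with 48 and 43 fragments. The summed level of the 4 natural killer markers in this label was 32.9 FPM in the tumor and 12.6 in the cecum, and their part in the Prf1 difference was not tested. In Rorgt gdT, Gzmk was at 32.9 against 13.4 (1.30, 0.65 to 1.97) and Gzma at 9.41 against 3.70 (1.35, 0.10 to 2.74). In Innate-like T#1, Gzmf was higher in the tumor (0.60, 0.01 to 1.23), and in Innate-like T#2 it had 20 tumor fragments and 0 of the cecum. Of 96 ratios of tumor over cecum with enough fragments, 12 had intervals without 0, a share near the 11.2% of 242766 such ratios over all genes and labels.

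**Figure D5:**
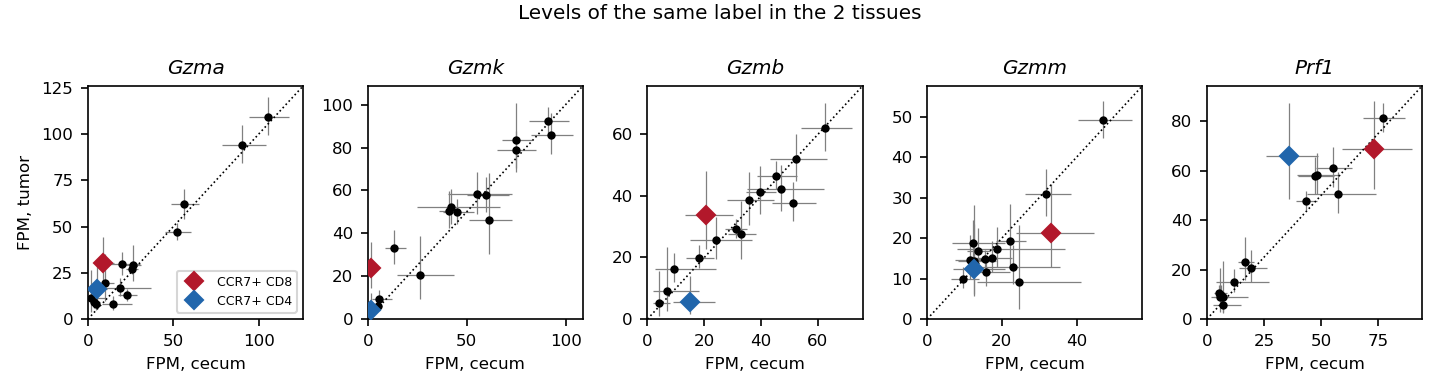
FPM of the same label in the cecum (horizontal) and the tumor (vertical) for 5 members, each point a label of at least 50 cells with its 95% intervals, and a dotted line of equal levels. Most points lie near the line, while CCR7+ CD8 (red diamond) lies above it for Gzma and Gzmk and CCR7+ CD4 (blue diamond) for Prf1.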

How the data were processed

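Nuclei of T cells from the cecum and the tumor were profiled with paired ATAC and RNA. Per the labels, the submitters' notes name Cell Ranger ARC 2.0.0 and mm10. The authors kept cells by RNA and ATAC quality, clustered them on RNA and carried the labels to ATAC. The deposited ATAC files list each fragment with its barcode and its count of read pairs. Each fragment was taken once, since its read pairs are copies made by PCR, and was assigned by barcode to the deposited label of its library. Read pairs per fragment were 4.29 in the cecum and 3.11 in the tumor. Labelled cells held 66.2% and 64.3% of the fragments.

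A fragment was counted in a window if either end fell in it. Ratios have exact conditional 95% intervals, levels exact Poisson intervals and shares exact Clopper-Pearson intervals. All cover counting error only, and a count of 0 was set to a floor of 3 fragments. With 1 library per tissue there is no test. A call between labels needed 2-fold in both libraries and at least 20 fragments in each, summed over both labels, so that a gene could meet the minimum through the label where it was high and counts of members called are descriptions; a call between tissues needed 1.5-fold and 20 fragments. The same rules were applied to all protein-coding genes. Labels with under 50 cells were not ranked. No doublet caller was run, and the deposited labels were used as given. Poisson counts were simulated from the pooled means of Cytotoxic CD8 and CCR7+ CD8, for 15296 genes in the cecum and 15285 in the tumor. In each library 200 genes were changed by 1 on the log2 scale. Median recovered ratios were 1.04 and 1.01 (log2), with 95.8% and 96.1% of intervals covering the truth. These counts held no variation between cells or animals, so they check the calculation only.

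The members, gene lists and rules were chosen with earlier results of these data known. All members are named; other genes are named if they belong to the granule, regulator or neighbour lists, are most correlated with a member, or mark a label; tiles are the tallest in Cytotoxic CD8 and those of largest difference in each comparison. Leaving out the shared barcodes was chosen after seeing the data. Python 3.11.15, numpy 2.4.6, pandas 2.3.3, scipy 1.17.1 and numba 0.67.0 were used. The full genotype of the organoids is not reported here.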

Additional observations from a re-analysis of the deposited data

Results flagged for a closer look

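Gzma moved differently between the tissues in different labels. Its log2 ratio of tumor over cecum was 1.81 in CCR7+ CD8 and 1.35 in Rorgt gdT, both with intervals above 0, and -0.83 in IL-10- Treg, with an interval below 0. Gzmc likewise had a ratio of 0.82 in CD8aa (-0.046 within 1 kb of the gene ends, where the opposite directions end) and -1.21 in Innate-like T#2 (5.31 FPM in the tumor against 12.3 in the cecum, 16 and 13 fragments). The opposite directions are what set these results apart, and the difference between labels was not tested, since each tissue has 1 library. The intervals cover counting error only, and 12 of 96 such ratios had intervals without 0, near the 11.2% of such ratios over all genes and labels.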

How the results depend on the processing

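Of 171 values that count members or tiles or give shares of cells, 127 stayed within 1.5 times (shares: within their interval) under the alternatives, and 44 did not. Of 153 values of single genes, 130 kept direction and side of the threshold, 20 kept direction but fell short of it, and 3 reversed: Gzma in Cytotoxic CD8 over CCR7+ CD8 (-0.17) and Gzmc in CD8aa, tumor over cecum (-0.046), both within 1 kb of the gene ends, and Gzma in IL-10+ Treg, tumor over cecum, as a mean over cells (-0.52). The causes were not tested. For Cytotoxic CD8 over CCR7+ CD8 (2 members) the count was 1 over the span without flank, within 1 kb of the gene ends and at 3-fold. For CD8aa over Cytotoxic CD8 (1 member) it was 0 with cells of at least 1000 fragments, within 1 kb of the ends, with 1 FPM added, without shared barcodes and at 3-fold, and 2 at 1.5-fold. For Cytotoxic gdT over Rorgt gdT (3) it was 1 at 3-fold. For the Treg labels (1) it was 2 without cells above 3 times the median depth, over the span, with no fragment minimum and at 1.5-fold, and 0 within 1 kb of the ends and at 3-fold. For tumor over cecum, Cytotoxic CD8 (0) gave 1 without the deepest cells, and 2 within 1 kb of the ends and as a mean over cells. PD1+ CD8 (1) gave 0 with cells of at least 1000 fragments, without the deepest cells, within 1 kb of the ends, with 1 FPM added, with a minimum of 50 fragments and at 2-fold. CD8aa (1) gave 2 over the span, as a mean over cells and with no minimum, and 0 at 2-fold. Cytotoxic gdT (0) gave 2 over the span, 3 within 1 kb of the ends and 1 with no minimum. IL-10+ Treg (4) gave 1 over the span and with 1 FPM added and 0 at 2-fold, and IL-10- Treg (2) gave 4 without the deepest cells and 1 over the span and at 2-fold. The share of Cytotoxic CD8 cells with a member fragment (48.8% and 43.0%) was 25.8% and 21.9% at 1000 fragments per cell, 66.7% and 68.3% at 4000, and 20.9% and 15.5% within 1 kb of the ends. No library could be left out, since each tissue has 1. No paired analysis was possible because each group is 1 library. Depth limits Gzmd, Gzme and Gzmg, which were not compared between labels, and CCR7+ labels, where counts of 1 to 4 fragments leave wide intervals.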
